A study of Drosophila melanogaster with 2 samples.

Results

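The mRNAs of the proteasome were examined among the RNAs bound by ME31B, a DEAD-box RNA helicase that represses maternal mRNAs, in *Drosophila melanogaster* stage 14 oocytes. Members were chosen by gene name: every gene whose listed or current symbol is that of an alpha or beta subunit of the core, an Rpt or Rpn subunit of the cap, or one of the older names of these genes. This gave 48 of the 16863 genes listed, of which 32 are general subunits and 16 are paralogs, recognised by a further letter or number in the symbol. All 48 were found in the RefSeq gene table of Release 6.

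A total of 2 libraries was measured, 1 of RNA from the input lysate and 1 of RNA from the ME31B immunoprecipitate. Both came from stage 14 oocytes of a large-scale culture that the labels give as w1118;eGFP-Me31B flies, in which ME31B carries a GFP tag, while the paper's methods name w1118 flies for the oocyte lysate. The label of the immunoprecipitate gives no antibody, and its protocol allows for anti-GFP or IgG; following the methods, it was taken as anti-GFP. No IgG library was analysed here, so RNA held by the beads themselves is part of each value. Values are FPKM, read numbers scaled to the length of the transcript and to the size of the library, so that levels can be compared between genes of different length within a library. Sequencing depth was not available in reads. Since each condition was sequenced as 1 library, differences could not be set against replicates and carry no p-value.

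The proteasome degrades proteins marked with ubiquitin chains. Its core is a barrel of stacked rings, in which the alpha subunits form the gated outer rings and the beta subunits the inner rings that hold the active sites. The cap binds, unfolds and feeds in the substrate: the Rpt subunits are the ATPases that pull on it, and the Rpn subunits include the ubiquitin receptors, the deubiquitinase and scaffold proteins. Oocytes store proteasome mRNAs and proteins, and egg activation is followed by degradation of many maternal proteins. The study depleted proteasome subunits by RNAi to ask about the fate of ME31B, and immunoprecipitated ME31B to measure its occupancy of stored mRNAs.

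Of the 32 general subunits, 31 were above 0.5 FPKM in both libraries, as were 40.8% of all genes listed. The oocyte germ line was represented by its markers: all 7 of a list with *osk*, *nos*, *bcd*, *dhd*, *vas*, *gnu* and *wisp* passed the same minimum, with a summed level of 13925 FPKM in the input against 15964 FPKM in the immunoprecipitate. Most of this was *dhd*, at 12458 and 13967 FPKM. In relative log2 occupancy, which is defined with the subunits, 5 of the 7 lay under the median gene, and *osk*, *vas* and *bcd* had less FPKM in the immunoprecipitate, with 312 and 197, 118 and 76.9, and 12.4 and 11.4 FPKM. Markers of the follicle cells that surround the oocyte were present too. Of 9 such markers, 6 passed, with a summed level of 687 FPKM in the input against 412 FPKM in the immunoprecipitate. Most of this was the chorion gene *Cp15*, at 520 and 309 FPKM. *Yp1* and *Yp2* passed at only 1.12 and 1.58 FPKM in the input, and *psd* was at 0.13 FPKM there and listed at 0 in the immunoprecipitate. All 6 markers that passed lay under the median gene in relative log2 occupancy. Of these, 4 stood at least 2-fold below it, against 15.2% of all genes. The part of follicle cells in the proteasome values was not tested, and a level in bulk RNA does not tell more cells from more RNA per cell.

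In the input, the 31 measured subunits lay between 87.6 and 755 FPKM with a median of 354 FPKM, against a median of 34.4 FPKM over the 6886 genes above the minimum. Each was more abundant than at least 79.3% of those genes. The core mRNAs were the more abundant class. The 13 measured core subunits ranged from 373 to 755 FPKM with a median of 614 FPKM, whereas the 18 cap subunits ranged from 87.6 to 448 FPKM with a median of 236 FPKM. Among these 31 mRNAs, only *Prosbeta7* and *Prosbeta2*, the lowest of the core at 373 and 445 FPKM, lay within the cap range. The only cap mRNAs within the core range were *Rpn11* and *Rpn12*, at 388 and 448 FPKM. *Prosbeta6*, *Prosalpha6* and *Prosbeta3* were the most abundant of the 31 at 755, 666 and 665 FPKM. *Rpn1*, *Rpn2* and *Rpt3* were the least abundant at 87.6, 96.5 and 148 FPKM. *Sem1*, a cap subunit outside the naming rule, was higher than any of the 31, at 878 FPKM.

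The alpha mRNAs were close to each other in the input, with a highest level 1.18 times the lowest. The beta mRNAs spread over a ratio of 2.02, the Rpt mRNAs over 2.39 and the Rpn mRNAs over 5.11. In the immunoprecipitate the ratio was 1.91 for the alpha, 1.88 for the beta, 2.41 for the Rpt and 26.1 for the Rpn mRNAs, wider than in the input for the alpha and Rpn classes and much the same for the beta and Rpt classes. Over all 31 mRNAs the ratio of highest to lowest was 8.61 in the input and 53.6 in the immunoprecipitate, or 7.82 and 29.8 without *Rpn1*. The SD of log2 FPKM over the subunits was 0.87 and 1.41, or 0.81 and 1.23 without *Rpn1*. Over all 6886 genes the same SD was 2.18 in the input and 2.40 in the immunoprecipitate.

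**Figure D1:**
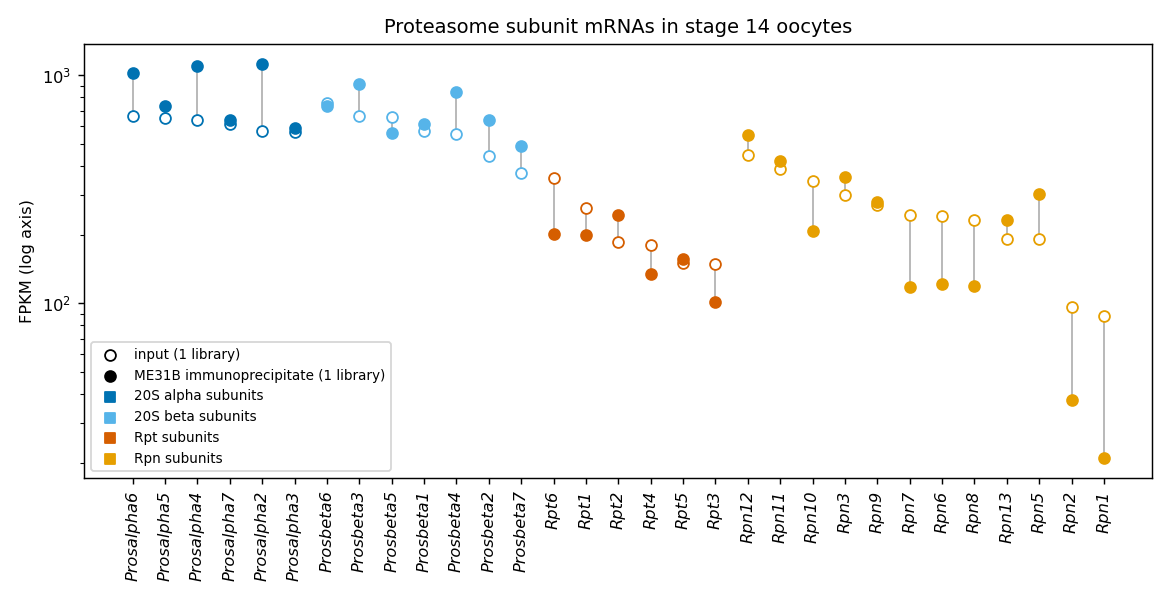
Level of each measured general subunit in FPKM on a log axis, with the input library as an open circle and the ME31B immunoprecipitate as a filled circle, 1 library each and no error bars. All 6 alpha mRNAs have the filled circle above the open one, and *Rpn1* and *Rpn2* are at 87.6 and 96.5 FPKM in the input and at 21.0 and 37.7 FPKM in the immunoprecipitate.

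Occupancy was taken as immunoprecipitate FPKM over input FPKM, as in the paper's methods. The median gene had an occupancy of 1.26, a log2 value of 0.33, and log2 occupancies are given relative to it, so that 0 is the median gene and −1 is 2-fold below it. By that scale the median of the cap lay below that of the core over all measured subunits, but near it among those free of overlapping genes. The 13 core mRNAs had a median of 0.06 and ranged from −0.56 to 0.64, and the 18 cap mRNAs had a median of −0.74 and ranged from −2.40 to 0.33. Of the core mRNAs 6 were below the median gene and 7 above it, and of the cap mRNAs 16 were below and 2 above, *Rpt2* and *Rpn5*. Over all genes the quartiles were −0.62 and 0.55. Among the 16 subunits whose span overlaps no other gene, the median was −0.17 for 7 core mRNAs and −0.22 for 9 cap mRNAs. At least 2-fold below the median gene were 0 of these core and 3 of these cap mRNAs, against 16.7% of all genes of that kind. Leaving genes out recounted no reads, so the nearer medians come from which subunits remain. The subunits left out include every Rpt mRNA but *Rpt3*, and *Rpn6*, *Rpn7* and *Rpn8*. Their overlaps differ in length, from 1 base for *Rpt5* and 93 bases for *Rpt4* to 1515 bases for *Rpt1*. The difference between core and cap has no test, since each mRNA was measured once.

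Of the 31 mRNAs, 7 stood at least 2-fold below the median gene, where 15.2% of all 6886 genes stood, and none at least 2-fold above it, where 9.48% of all genes stood. As a share of the 31, the 7 are 22.6%, nearer to the share of all genes than to that of genes within the same input range, given below. All 7 encode cap subunits: *Rpn1*, *Rpn2*, *Rpn6*, *Rpn7*, *Rpn8*, *Rpn10* and *Rpt6*. They are 38.9% of the 18 cap mRNAs, and no core mRNA was among them. Among the 1245 genes within the input range of the measured subunits, 9.56% were 2-fold below and 12.0% were 2-fold above, with a median of 0.27, against −0.28 for the 31. Without centring on the median gene only *Rpn1*, *Rpn2* and *Rpn7* had an occupancy of 0.5 or less, and by that scale 9.15% of all genes did. Of all genes past 2-fold in either direction, 38.4% lay above with centring on the 6886 genes and 68.9% without centring. When the median was taken over every gene above 0 in at least 1 library, with a pseudocount of 0.5, 56.7% lay above, and *Rpt6* and *Rpn10*, at −0.95 and −0.88, were no longer among the subunits 2-fold below. In the deposited units, 19 of the 31 mRNAs had a higher FPKM in the immunoprecipitate than in the input, a share near the 64.2% of all genes. These were 11 of 13 core mRNAs and 8 of 18 cap mRNAs.

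**Figure D2:**
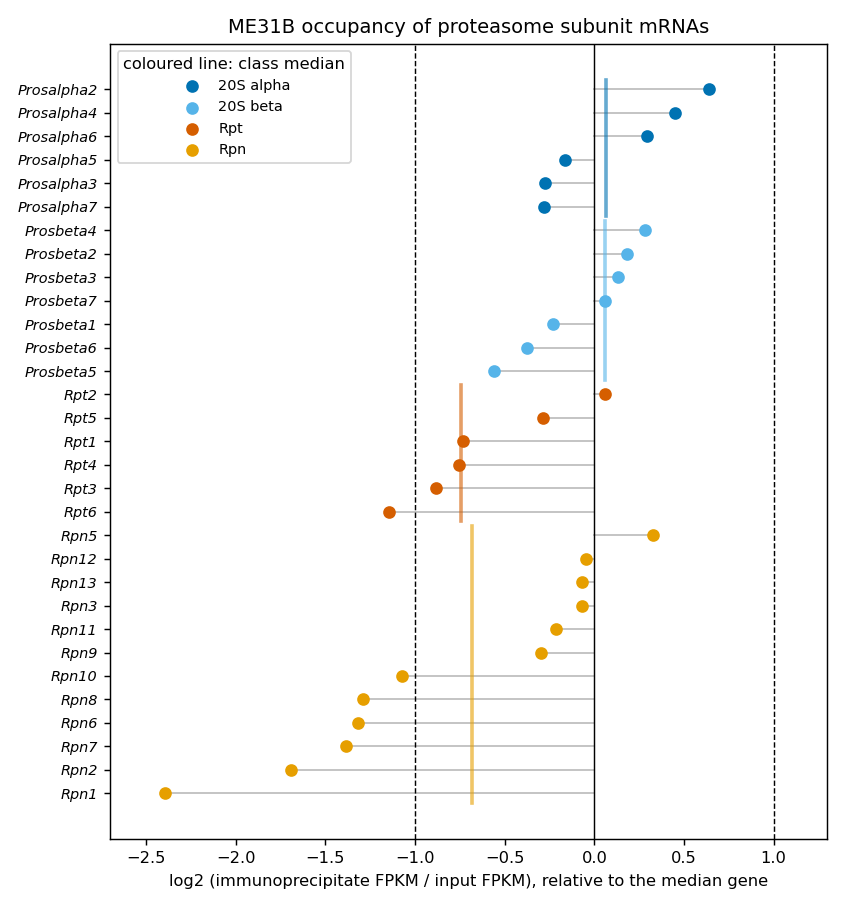
Log2 occupancy of each measured subunit relative to the median gene, grouped by class, with dashed lines at 2-fold and a coloured line at each class median. The medians of the alpha and beta classes are at 0.06 and 0.06, those of the Rpt and Rpn classes at −0.74 and −0.69, and the 7 mRNAs left of the lower dashed line are all cap subunits.

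The alpha subunits build the outer rings, whose centre is the gate of the barrel. *Prosalpha2* (chr3R:12431321-12432556) had the highest occupancy of the whole set, with 572 FPKM in the input against 1124 FPKM in the immunoprecipitate, 0.64 above the median gene and higher than 78.6% of all genes. *Prosalpha4*, at 635 and 1094 FPKM, and *Prosalpha6*, at 666 and 1028 FPKM, followed at 0.45 and 0.29. In the immunoprecipitate these were the only ones of the 31 mRNAs above 1000 FPKM. The other measured alpha mRNAs lay just under the median gene. *Prosalpha5* had 650 and 730 FPKM, a relative log2 occupancy of −0.17. *Prosalpha3*, at 565 and 588 FPKM, and *Prosalpha7*, at 614 and 638 FPKM, were both at −0.28. The 6 alpha mRNAs therefore fell into 3 above and 3 below the median gene, in a span of levels that was narrow in the input.

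*Prosalpha1* was listed at 0 in both libraries, although every other general subunit was at 87.6 FPKM or more in the input. *Prosalpha1R*, a related gene that begins 1734 bases beyond it, was also listed at 0 in both. *Prosalpha1* lies at chr2R:7827303-7828678 and *Prosalpha1R* at chr2R:7830413-7831771. The sources used here do not say how reads with several positions were counted, and these zeros say nothing of whether the oocyte holds the mRNA. Sums over the alpha class lack it.

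Of the beta subunits, *Prosbeta1*, *Prosbeta2* and *Prosbeta5* carry the active sites, which cut after acidic, basic and hydrophobic residues respectively. They did not share a position. *Prosbeta2* had 445 FPKM in the input against 637 FPKM in the immunoprecipitate, 0.18 above the median gene. *Prosbeta1* had 570 and 612 FPKM, at −0.23. *Prosbeta5* had 653 and 559 FPKM and was the lowest core mRNA at −0.56, with 27.1% of all genes lower. Among the beta subunits without an active site, *Prosbeta4* was the highest of the class at 0.28, with 550 and 843 FPKM. *Prosbeta3* had 665 and 919 FPKM, at 0.13, and *Prosbeta7* had 373 and 490 FPKM, at 0.06. *Prosbeta6*, the most abundant of the set in the input, had 755 and 732 FPKM and lay at −0.38. *Prosbeta5* and *Prosbeta6* were the only core mRNAs with less FPKM in the immunoprecipitate than in the input.

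The Rpt subunits form the ATPase ring of the cap. *Rpt6* was the most abundant of them in the input and the lowest in occupancy, with 354 FPKM in the input against 202 FPKM in the immunoprecipitate, at −1.14 and thus 2.21-fold below the median gene. *Rpt3*, at 148 and 101 FPKM, *Rpt4*, at 181 and 135 FPKM, and *Rpt1*, at 262 and 199 FPKM, lay between −0.88 and −0.73. The other Rpt mRNAs were nearer the median gene. *Rpt5* had 151 and 156 FPKM, at −0.28, and *Rpt2* had 186 and 244 FPKM, at 0.06. In the immunoprecipitate *Rpt2* was therefore the highest of the class, while in the input it was the third.

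The Rpn subunits held both the lowest mRNA of the set and members close to the core. *Rpn1* and *Rpn2* are the large scaffold proteins at the base of the cap, and *Rpn1* also docks shuttle factors in yeast. *Rpn1* (chr3L:19915051-19918160) had 87.6 FPKM in the input against 21.0 FPKM in the immunoprecipitate, a relative log2 occupancy of −2.40 or 5.27-fold below the median gene, with only 1.44% of all genes lower. *Rpn2* (chr3R:29153524-29157255) had 96.5 and 37.7 FPKM, at −1.69, with 4.89% of all genes lower. These were the least abundant subunit mRNAs in both libraries, and they also had the lowest occupancies. *Rpn1* was 0.71 below *Rpn2*, the widest gap between neighbours in the order of the 31.

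The next lowest were lid subunits, which sit on the side of the cap. *Rpn7* had 245 FPKM in the input against 118 FPKM in the immunoprecipitate, at −1.38. *Rpn6*, which bridges core and cap, had 241 and 122 FPKM, at −1.32. *Rpn8*, also known as *Mov34*, had 231 and 119 FPKM, at −1.29. These lid mRNAs thus had nearly the same level as each other in each library. *Rpn8* is the inactive partner of *Rpn11*, the deubiquitinase that removes ubiquitin chains from the substrate. *Rpn11* differed from its partner, with 388 and 422 FPKM, at −0.22.

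Of the ubiquitin receptors of the cap, *Rpn10* was the seventh below the 2-fold limit, with 346 FPKM in the input against 207 FPKM in the immunoprecipitate, at −1.07. *Rpn13*, another receptor, had 192 and 231 FPKM, at −0.07. *Rpn10* and *Rpn11* are the cap subunits for which the study obtained embryos after RNAi during oogenesis. They lay 0.86 apart on the log2 scale. The remaining lid mRNAs were at or near the median gene. *Rpn12* had 448 and 547 FPKM, at −0.05, *Rpn3* had 298 and 357 FPKM, at −0.07, and *Rpn9* had 270 and 277 FPKM, at −0.30. *Rpn5* had 191 and 302 FPKM and was the highest of the 18 cap mRNAs taken by the naming rule, at 0.33. By position in the cap, the 10 base mRNAs, the Rpt subunits with *Rpn1*, *Rpn2*, *Rpn10* and *Rpn13*, had a median of −0.82 with 4 at least 2-fold below the median gene. The 8 lid mRNAs, without *Sem1*, a lid subunit outside the naming rule, had a median of −0.26 with 3 at least 2-fold below. The share at least 2-fold below was thus much alike, 40.0% of the base and 37.5% of the lid mRNAs, against 15.2% of all genes.

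As summed FPKM, the core made up 0.719% of the input and 0.883% of the immunoprecipitate, and the cap 0.402% and 0.336%. The core sum was 1.79 times the cap sum in the input and 2.63 times in the immunoprecipitate. These ratios compare sums within a library and do not depend on centring. Both leave out *Prosalpha1* and *Sem1*. From input to immunoprecipitate the cap sum went from 4315 to 3798 FPKM, while *Sem1* alone went from 878 to 1624 FPKM. The rise of *Sem1* is larger than the fall of the cap sum. With *Sem1* counted in the cap, the cap sum would therefore be higher in the immunoprecipitate. Both ratios of core to cap would be smaller, but that of the immunoprecipitate would still be the larger. The size of the fall in cap share thus rests largely on leaving out *Sem1*, while the rise of the core sum over the cap sum does not.

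*Sem1* encodes the smallest cap subunit, which lies in the lid and is not taken by the naming rule. It had 878 FPKM in the input against 1624 FPKM in the immunoprecipitate, higher than any of the 31 mRNAs in either library, at 0.55 above the median gene. With it, 3 cap mRNAs would lie above the median gene. The annotated span of *Sem1* is short and overlaps that of *Nuf2*, so reads in the shared part may be counted for either.

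Gene span moved with occupancy and with class. Span here is the genomic length from start to end of the gene in RefSeq, introns included, since transcript lengths were not used. The core genes span 914 to 1369 bp and the cap genes 995 to 4500 bp. Across the 31 mRNAs, Spearman's rho was −0.50 between log2 occupancy and span and −0.85 between input FPKM and span. These are descriptions over genes of the same 2 libraries. Over 6550 protein-coding genes rho of occupancy with span was −0.45. Within the 13 core genes it was 0.19 and within the 18 cap genes −0.31, both weaker than over the whole set.

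Set beside protein-coding genes of like span, the subunit mRNAs had the lower median in each class of length. Below 1000 bp, 4 subunit mRNAs had a median of 0.04 and 655 protein-coding genes one of 0.57. From 1000 to 1500 bp, the medians were −0.19 for 12 subunits and 0.48 for 905 genes. From 1500 to 2000 bp they were −0.73 for 9 subunits and 0.27 for 862 genes, and from 2000 to 5000 bp −1.30 for 6 subunits and −0.10 for 2289 genes. In this last class 4 of the 6 subunits passed the lower 2-fold limit, as did 13.1% of protein-coding genes. The 4 are *Rpn1*, *Rpn2*, *Rpn6* and *Rpn8*, while *Rpn5* and *Rpn9*, with spans of 2077 and 2088 bp, lay at 0.33 and −0.30. *Rpn7*, in contrast, spans only 1393 bp. The part of span in the difference between core and cap was not tested.

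**Figure D3:**
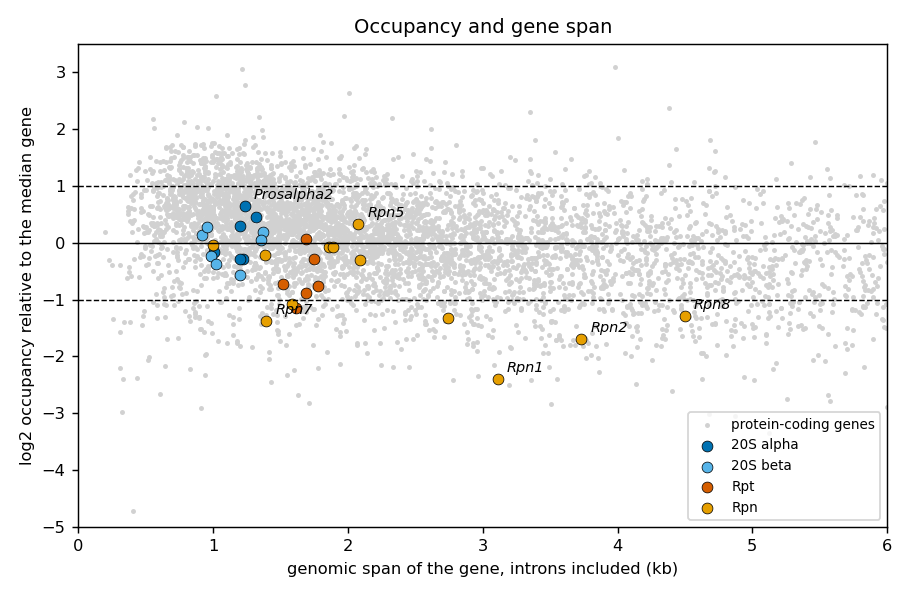
Log2 occupancy relative to the median gene against genomic span in kb for the 31 measured subunits, coloured by class, over protein-coding genes of up to 6 kb in grey. The core genes cluster below 1.5 kb around 0, the Rpt genes lie between 1.5 and 2 kb, and *Rpn1*, *Rpn2* and *Rpn8* lie at 3.11, 3.73 and 4.50 kb, all more than 2-fold below the median gene.

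Annotated neighbours on either strand overlap 15 of the 31 genes, and reads in a shared part may be counted for either gene if strand was not used. The paper's methods name a stranded library kit but do not say whether counting used the strand. *Rpt1* shares all of its 1515 bases with *CG17985*, which was at 14.8 FPKM in the input against 28.4 FPKM in the immunoprecipitate. Among the 7 lowest mRNAs, *Rpn1*, *Rpn2* and *Rpn10* overlap no other gene. *Rpn7* shares 88 bases with *CG34376*, which was at 1.25 FPKM in the input against 1.97 FPKM in the immunoprecipitate. *Rpt6* shares 1471 bases with *CG1801*, which was at 0.22 and 0.16 FPKM. Both neighbours were far below the subunit they overlap. *Rpn8* shares 2653 bases with *Slik*, at 35.4 and 31.2 FPKM, and *Rpn6* shares 390 bases with *ave*, at 102 and 241 FPKM. The level of *ave* was thus higher in the immunoprecipitate, where *Rpn6* was lower. When every gene with an overlapping neighbour was left out, 16 subunits remained, of which 3 stood at least 2-fold below the median gene, as did 16.7% of the 3139 genes of that kind. The Rpn median then moved from −0.69 to −0.15. The alpha and beta medians moved from 0.06 and 0.06 to −0.17 and −0.16, so that the Rpn median was no longer below them. No single subunit moved by 0.25 or more, so the medians shifted with the subunits that remained. The Rpt class kept only *Rpt3*, at −0.88, and the beta class only *Prosbeta6* and *Prosbeta7*, at −0.38 and 0.06. The 3 mRNAs still at least 2-fold below were *Rpn1*, *Rpn2* and *Rpn10*, and no core mRNA was among them.

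Flies carry paralogs of many proteasome subunits, several of which are known from the testis. None of the 16 paralogs was above 0.5 FPKM in either library, and 12 were listed at 0 in both, as were 42.2% of all genes. These 12 include all of *Prosalpha3T*, *Prosalpha4T1*, *Prosalpha6T*, *Prosbeta2R1*, *Prosbeta2R2*, *Prosbeta4R2*, *Prosbeta5R1*, *Prosbeta5R2*, *Rpt4R*, *Rpn12R* and *Rpn13R*, with *Prosalpha1R* described above. The highest paralog was *Rpt3R*, with 0.46 FPKM in the input against 0.22 FPKM in the immunoprecipitate, where *Rpt3* had 148 and 101 FPKM. *Rpt6R* had 0.07 and 0.26 FPKM. *Prosalpha4T2* and *Prosbeta4R1* were at 0.09 and 0.15 FPKM in the input and listed at 0 in the immunoprecipitate. All of these were too low for an occupancy. Defining markers of the male germ line were also low, and none was above 0.5 FPKM in both libraries. The 10 markers, *dj*, *betaTub85D* and *Mst87F* among them, summed to 2.16 FPKM in the input against 0.30 FPKM in the immunoprecipitate. The highest was *Mst84Da*, at 1.21 FPKM in the input, above the minimum, and listed at 0 in the immunoprecipitate.

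Other genes of the pathway were taken from a list chosen by role, with 30 names. Of these, 28 were matched and above the minimum in both libraries. The other two, *Uch-L3* and *Fbxo7*, matched no further gene. Of the 28, 4 stood at least 2-fold below the median gene and 2 at least 2-fold above it, near the shares of 15.2% and 9.48% of all genes, and the median was 0.04. The lowest was *TER94*, the ATPase known as p97 that extracts ubiquitinated proteins from complexes and membranes. It had 343 FPKM in the input against 70.7 FPKM in the immunoprecipitate, at −2.61, lower than *Rpn1*. *Plap*, whose relatives bind p97, had 68.7 and 15.2 FPKM, at −2.51. The partners that help p97 select its substrates were near the median gene, with *Ufd1* at −0.01, *Npl4* at 0.16 and *p47* at −0.28. *TER94* overlaps a noncoding RNA gene and *Plap* overlaps other genes.

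The deubiquitinases and regulators that act at the proteasome were spread around the median. *Usp5*, which takes apart free ubiquitin chains, had 89.3 FPKM in the input against 33.4 FPKM in the immunoprecipitate, at −1.75. *Usp14* and *Uch-L5*, the deubiquitinases that dock on the cap, were at 0.14 and −0.28. *ntc*, an F-box protein gene whose product binds the proteasome regulator PI31, had 21.9 and 64.9 FPKM, at 1.24, while *PI31* itself was at 0.09. *REG*, which encodes an alternative activator of the core, was at 0.20. Assembly factor mRNAs were at or above the median gene, with *Pomp*, needed to build the core, at 0.52 and *PSMG1* at 0.04. Of the shuttle factors that bring substrates to the cap, *Rad23* had 358 and 830 FPKM, at 0.88, whereas *Ubqn* and *rngo* were at −0.38 and −0.38.

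The ubiquitin genes themselves lay on both sides of the median gene. *Ubi-p5E*, a polyubiquitin gene, had 382 FPKM in the input against 1120 FPKM in the immunoprecipitate, at 1.22, and *Ubi-p63E*, the other polyubiquitin gene, had 99.1 and 67.1 FPKM, at −0.90. The repeated ubiquitin units of these genes are near-identical, so reads may have been shared between them and both values are uncertain. *RpL40* and *RpS27A* each encode a ubiquitin fused to a ribosomal protein. *RpL40* had 2822 and 1439 FPKM, at −1.31, and *RpS27A* had 9047 and 9895 FPKM, at −0.21. *cnc*, a transcription factor of proteasome genes, was at −0.05. A last 5 names of the list, CG9588, CG11885, CG12795, CG13319 and CG3812, lay between 0.04 and 0.86. They are given no role here, and CG3812 is *Agpat1* in RefSeq, a lipid enzyme.

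**Figure D4:**
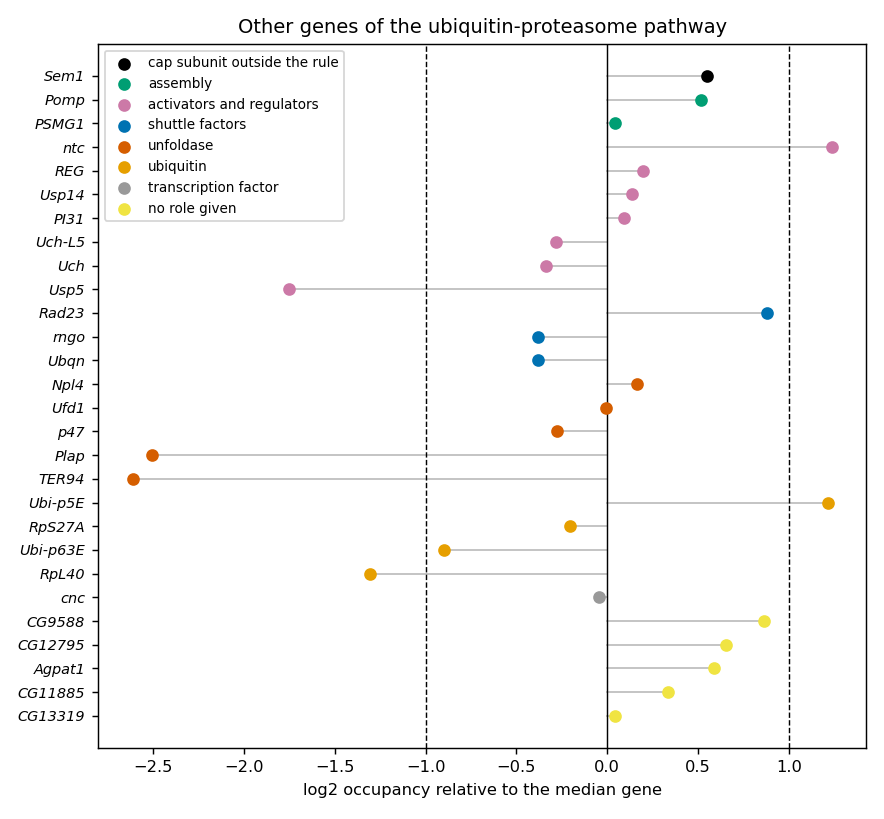
Log2 occupancy relative to the median gene for the 28 other genes on the pathway list, grouped by role, with dashed lines at 2-fold. *TER94* and *Plap* lie at −2.61 and −2.51, the other 2 mRNAs 2-fold below are *Usp5* and *RpL40*, and the 2 mRNAs 2-fold above are *ntc* and *Ubi-p5E*.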

How the data were processed

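RNA from stage 14 oocyte lysate (input) and from an ME31B immunoprecipitate was sequenced after rRNA depletion, 1 library each. Per the methods and the submitters' processing notes, the authors demultiplexed reads with bcl2fastq 2.17, mapped them with STAR 2.5.2a to dm6 and quantified genes with Cufflinks 2.2.1. The deposited values are FPKM, with no further scaling stated. Libraries were made with a stranded kit, per the methods. The sources used here do not give the annotation release, the use of strand in counting, the handling of reads with several positions or the number of reads. Over 1054 low genes, above 0 but under 0.5 FPKM in each library, the commonest ratio between libraries was 0.993, in a bin of only 41 genes, a weak sign of similar depth, and no counting interval was computed.

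Occupancy was computed in Python 3.11.15 (pandas 2.3.3, SciPy 1.17.1) for 6886 genes that exceeded 0.5 FPKM in each library, as log2 without a pseudocount, centred on the median gene. Calls used a fixed 2-fold rule; the computation was tested on simulated data. The members, lists and rules were chosen with earlier results of these data known. Members named in full are the highest and lowest of each class, those 2-fold from the median gene, the most and least abundant, the catalytic subunits, *Rpn10* and *Rpn11*, and paralogs above 0; all other measured members are given too. Genes named from the pathway list beyond those 2-fold from the median were chosen after their values were seen. Names, spans and coordinates come from the RefSeq table of Release 6, which matched 6839 of the 6886 genes. Alternatives changed the minimum, the pseudocount, the centring, the fold, overlapping genes and genes at 0 in both libraries.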

Additional observations from a re-analysis of the deposited data

How the results depend on the processing

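No paired analysis was possible because there was only 1 input and 1 immunoprecipitate. The planned relation with protein length was not run, since protein lengths were not used here, and span took its place; with paralogs left out its rho was the same. With neither replicates nor counts, a log2 value was taken as moved when it differed by 0.25 or more. Without centring, 3 subunit mRNAs were 2-fold below, and the medians were 0.057 for all subunits, 0.40 for alpha, 0.39 for beta, −0.41 for Rpt and −0.35 for Rpn; over all genes, 630 were then below and 1395 above, so that 68.9% of calls lay above, against 38.4% with centring. Without a filter and with a pseudocount of 0.5, where the median gene sits at 0 because 7110 genes are at 0 in both libraries, the count was again 3 and the medians were 0.056 for all subunits, 0.39 for beta, −0.41 for Rpt and −0.35 for Rpn, with 662 genes below and 1461 above (68.8% above). *Prosalpha1*, listed at 0 in both libraries, enters that unfiltered setting at the level of the median gene. The alpha median there, 0.17, is thus over 7 genes and the median of all subunits over 32. At 1.5-fold, 10 mRNAs were below and 1 above, with 1808 and 1639 of all genes. At 3-fold, 2 were below, with 410 and 123 of all genes. A last pair of alternatives was chosen after the data were seen. With genes at 0 in both libraries left out, no other filter and a pseudocount of 0.5, 5 mRNAs were below, without *Rpt6* and *Rpn10*, and over all genes 839 were below and 1100 above (56.7% above). With overlapping genes left out, 3 were below, all of the cap. The Rpn median was −0.15, no lower than the core medians of −0.17 and −0.16. No single subunit moved there, and the medians shifted with the subunits that remained. At a detection limit of 0.1 FPKM, 1 paralog was detected. With a minimum of 5 FPKM, a minimum on the input only with pseudocount 0.1, a pseudocount of 1 or centring on protein-coding genes, the count of 7 held and no single subunit moved. The depth of each library is unknown and limits what can be said of the paralogs.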
